A study of Mus musculus with 3 samples.

Results

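The transcription factor genes Batf, Irf4, Prdm1, Maf, Gata3, Rora, Ahr and Bhlhe40 were followed in single regulatory T cells (Tregs) of mouse epidermis, dermis and lymph node. They are factors known from effector Tregs, were picked out by symbol and make up 8 of the 27998 genes in the table that all 3 libraries share. Each of the 8 had UMIs (unique molecular identifiers, 1 per captured transcript) in every library. The design compares Tregs of the epidermis with those of the dermis, and both with Tregs of the lymph node.

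The epidermal library came from back skin and, like the dermal and the lymph node library, from adult mice of the strain FOXP3-EGFP (C.Cg-Foxp3tm2Tch/J), in which green fluorescent protein reports Foxp3. All 3 populations were sorted as GFP+ CD4+ CD3+ CD45+ cells and none was treated. There was 1 library per tissue, and the sources used here give neither the number nor the sex of the animals behind each. Intervals below therefore cover counting error only, and no test between tissues was possible.

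Tregs are CD4 T cells that depend on Foxp3 and restrain immune responses. Those that have met antigen turn into effector Tregs, and many of these settle in tissues such as skin. BATF and IRF4 bind DNA together and act downstream of the T cell receptor. BLIMP-1, the product of Prdm1, and c-MAF are both linked to interleukin 10 in T cells. GATA3 and RORα are best known from type 2 lymphocytes and are also used by Tregs at body surfaces, AHR is a receptor for small aromatic ligands, and BHLHE40 is a repressor tied to the circadian clock and to T cell activation.

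Promoter sequences are shown for 3 of the genes. Rora had the highest ratio of dermis to lymph node among the 5 members with an entry in the RefSeq promoter table (GRCm38.p6), Batf had the lowest, and Prdm1 holds matches to 2 of the motifs searched. Each run is 5′ to 3′ on the gene's strand and ends before the first annotated exon base or after 250 bases. Capitals mark matches to binding motifs of the factors themselves, on either strand. The positions are chr9:68653536-68653785 on the plus strand for Rora, chr10:44458749-44458998 on the minus strand for Prdm1 and chr12:85686470-85686668 on the plus strand for Batf.
Rora: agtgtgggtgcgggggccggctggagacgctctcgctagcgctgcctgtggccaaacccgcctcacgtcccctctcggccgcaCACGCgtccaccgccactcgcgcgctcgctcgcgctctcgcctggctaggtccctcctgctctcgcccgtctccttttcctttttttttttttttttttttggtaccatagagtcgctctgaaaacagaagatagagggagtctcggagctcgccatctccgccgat
Prdm1: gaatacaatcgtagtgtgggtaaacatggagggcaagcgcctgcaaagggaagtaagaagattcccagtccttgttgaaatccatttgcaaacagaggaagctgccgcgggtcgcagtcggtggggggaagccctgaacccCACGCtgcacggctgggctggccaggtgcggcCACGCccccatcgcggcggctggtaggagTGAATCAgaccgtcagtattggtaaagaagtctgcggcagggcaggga
Batf: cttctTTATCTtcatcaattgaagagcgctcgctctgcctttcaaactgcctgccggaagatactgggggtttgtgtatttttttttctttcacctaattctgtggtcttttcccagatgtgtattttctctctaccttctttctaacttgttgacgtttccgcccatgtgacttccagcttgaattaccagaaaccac
Distances are to the RefSeq start, which for Rora is the first base of the annotated gene. For Batf it lies 51 bases, and for Prdm1 69753 bases, downstream of the annotated gene's first base, so the Prdm1 window is that of a start inside the annotated gene. The AHR core GCGTG stood 167 bases before the RefSeq start of Rora and 109 and 77 bases before that of Prdm1. It was in 3 of the 5 promoters of members (Irf4 too) and in 32.4% of all 32851 promoters of 300 bases in the table. The AP-1 motif TGANTCA, to which BATF-containing dimers can bind, was found 48 bases before the RefSeq start of Prdm1 and in 7.81% of all promoters. Batf held a GATA motif (AGATAA, in 11.2% of all promoters) 245 bases before its RefSeq start. Gata3 held a MAF core (TGCTGA, 19.5%), and Irf4 a BLIMP-1 core (GAAAGT, 14.3%). The RefSeq start of Gata3 lies 11434 bases downstream of the annotated gene's first base, so its window too is that of a start inside the gene. For Irf4 the distance is 7 bases. The IRF motif, a pair of GAAA repeats spaced by 2 bases (3.44%), the ROR core AGGTCA (16.3%) and the E-box CACGTG (7.15%) had no match in the 5 windows. These are matches of letters and were not tested for binding.

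In the mm10 annotation the genes lie on chromosome 12 (Batf, 85686669 to 85709087, and Ahr, 35497974 to 35535038), 13 (Irf4, 30749226 to 30766976), 10 (Prdm1, 44437177 to 44528501), 8 (Maf, 115682942 to 115707794), 2 (Gata3, 9857078 to 9890034), 9 (Rora, 68653786 to 69388246) and 6 (Bhlhe40, 108660629 to 108666925). A noncoding or predicted gene overlaps Gata3 on the same strand, so counts of Gata3 could include some of its reads. Rora, Maf, Bhlhe40, Ahr and Gata3 have annotated genes on the opposite strand.

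Cells with at least 500 UMIs and at most 10% mitochondrial UMIs were kept, which left 297 epidermal, 875 dermal and 9400 lymph node cells with 2205131, 4630059 and 32906839 UMIs. Lymph node cells were run with the 10x v2 kit and skin cells with v3, so tissue and kit cannot be told apart in any ratio to lymph node. Foxp3 stood at 91.6, 146 and 21.8 UMIs per 1000000 UMIs of the library (CPM) in epidermis, dermis and lymph node, and Cd3e and Cd4 were counted in all 3 libraries. Among kept cells, 41 barcodes occurred in both skin libraries, that is 13.8% of epidermal cells with 24.3% of epidermal UMIs, and 5.29% of dermal UMIs. Their median depth was 13158 UMIs in epidermis and 1379 UMIs in dermis. Gene by gene, the median correlation was 0.58 between the 2 profiles of the same barcode and 0.29 between profiles of different barcodes. Results that rest on skin cells are therefore given with and without these barcodes where they differ. Y-linked UMIs were seen in 35.0% of epidermal, 8.11% of dermal and 0 lymph node cells, and mitochondrial UMIs put 17.5%, 18.8% and 0.202% of barcodes over the limit.

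Effector Treg transcription factor genes were mostly higher in skin than in lymph node. A gene was called at a CPM ratio of 2 or more, provided that it reached 20 CPM in either of the libraries compared. Relative to lymph node, 7 of the 8 genes were called higher in epidermis, against 19.7% of the 5893 genes considered. In dermis 7 were called higher than in lymph node, against 24.6% of 5940 genes. Batf was the member not called in either comparison, and none was called lower (background 3.11% and 9.38%). The median log2 ratio over the 8 members was 2.36 for epidermis and 2.90 for dermis, beside 0.19 and 0.16 over all genes considered. Both comparisons share the lymph node library.

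**Figure D1:**
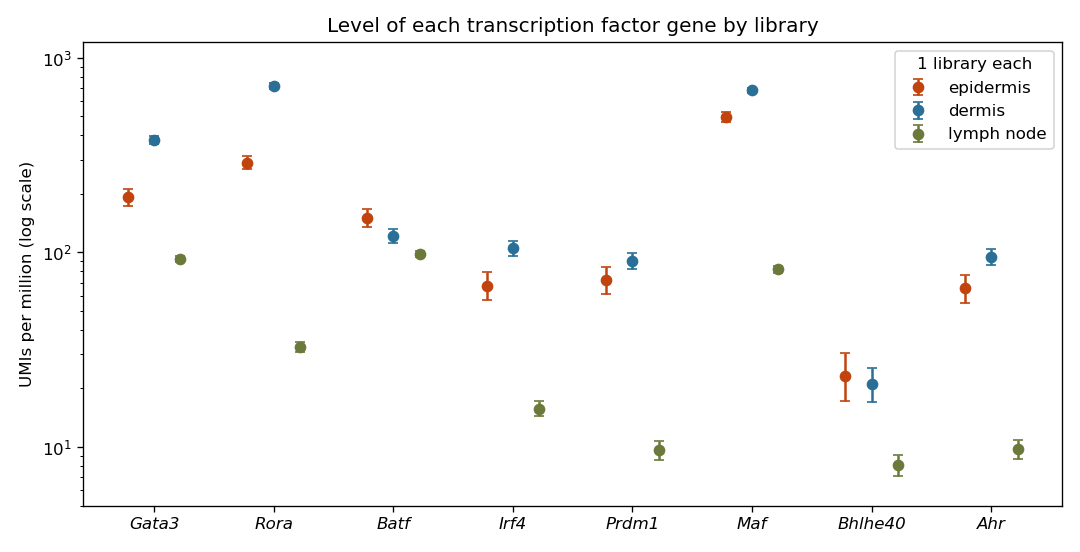
CPM of each of the 8 genes (log axis) in epidermis, dermis and lymph node, 1 library each, with exact 95% Poisson intervals for counting error. For 7 genes both skin points lie at least 2-fold above lymph node, while the 3 Batf points lie between 97.9 and 150 CPM.

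Batf and Irf4, whose products bind DNA as partners, differed in how far skin stood above lymph node. Batf stood at 150 CPM in epidermis (95% interval 134 to 167), 122 CPM in dermis (112 to 133) and 97.9 CPM in lymph node (94.6 to 101). Its ratio to lymph node was 1.53 in epidermis (1.36 to 1.72) and 1.25 in dermis (1.14 to 1.36). Without the shared barcodes epidermal Batf fell to 117 CPM and its log2 ratio to lymph node to 0.25, against 0.62 with them. Under TMM scaling, which moved the median of all genes to -0.30, the log2 ratio of dermis to lymph node was -0.06, so the direction of Batf in dermis depends on the scaling. Irf4 stood at 67.6 CPM in epidermis (57.2 to 79.3), 105 CPM in dermis (96.0 to 115) and 15.7 CPM in lymph node (14.4 to 17.1). The Irf4 ratio was 4.30 in epidermis (3.56 to 5.17) and 6.69 in dermis (5.90 to 7.59), above that of Batf in both comparisons.

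Prdm1 and Maf, the genes of the factors linked to interleukin 10, both stood more than 6-fold above lymph node in skin. Prdm1 was counted at 72.1 CPM in epidermis (61.3 to 84.2), 90.3 CPM in dermis (81.8 to 99.4) and 9.63 CPM in lymph node (8.60 to 10.8). That gave ratios of 7.48 (6.15 to 9.08) and 9.37 (8.08 to 10.9). Maf was counted at 499 CPM in epidermis (470 to 529), 679 CPM in dermis (656 to 704) and 81.8 CPM in lymph node (78.7 to 84.9). Its ratios were 6.10 (5.68 to 6.55) and 8.31 (7.89 to 8.75).

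Rora had the highest ratio of the 8 genes in both comparisons, and Gata3 one of the lower ones. The level of Rora was 289 CPM in epidermis (267 to 313), 714 CPM in dermis (690 to 739) and 32.5 CPM in lymph node (30.6 to 34.6). It was thus 8.89-fold (8.05 to 9.81) and 22-fold (20.5 to 23.5) above lymph node. The level of Gata3 was 192 CPM in epidermis (174 to 211), 379 CPM in dermis (361 to 397) and 93.0 CPM in lymph node (89.7 to 96.3). Gata3 was 2.06-fold above lymph node in epidermis (1.86 to 2.28), an interval that spans the 2-fold limit, and 4.07-fold in dermis (3.84 to 4.32). The epidermal ratio was 2 or more under 10 of 15 alternative cell sets and scalings, and its log2 value was 0.57 under TMM and 0.91 without the immediate early-like cluster.

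Ahr and Bhlhe40 were the remaining members called in both comparisons. Ahr reached 65.3 CPM in epidermis (55.1 to 76.9), 94.4 CPM in dermis (85.7 to 104) and 9.72 CPM in lymph node (8.69 to 10.9), with ratios of 6.72 (5.48 to 8.20) and 9.71 (8.38 to 11.2). Bhlhe40 reached 23.1 CPM in epidermis (17.2 to 30.4), 21.0 CPM in dermis (17 to 25.6) and 8.05 CPM in lymph node (7.11 to 9.08), with ratios of 2.87 (2.08 to 3.89) and 2.60 (2.04 to 3.29). Bhlhe40 sat in few skin cells: 10 cells held 60.8% of its 51 epidermal UMIs, and 10 cells held 53.6% of its 97 dermal UMIs. Without the shared barcodes dermal Bhlhe40 stood at 17.6 CPM, under the limit of 20, and 6 of the 8 members were called higher in dermis than in lymph node.

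**Figure D2:**
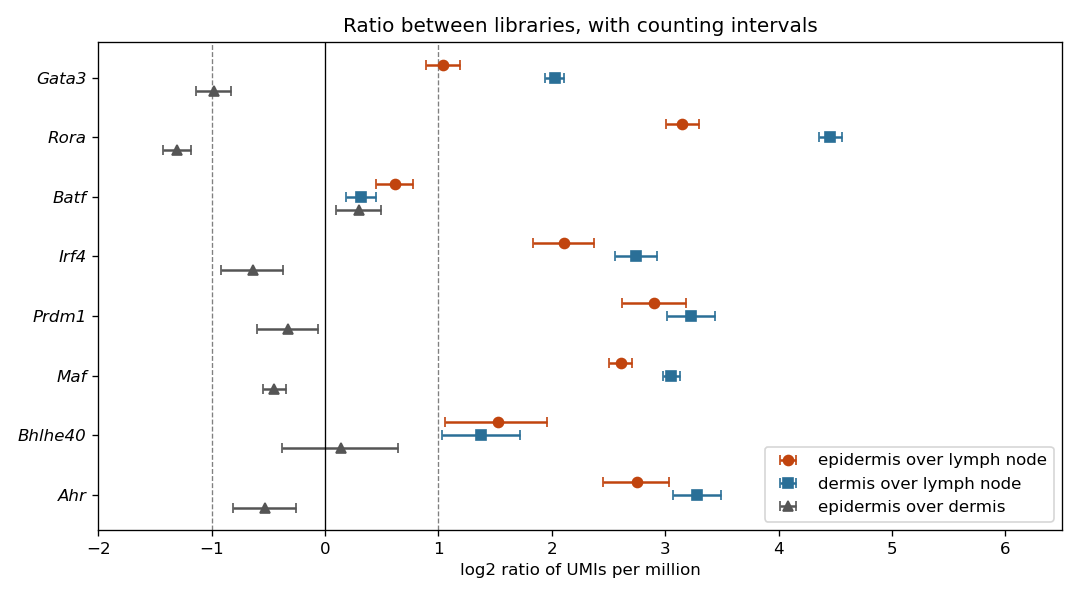
Log2 ratio of CPM for each gene and comparison, with exact 95% intervals from the split of the counts. Dashed lines mark a 2-fold ratio. Ratios to lymph node run from 0.62 to 3.15 in epidermis and from 0.32 to 4.46 in dermis, and the ratios of epidermis to dermis from -1.30 to 0.30.

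Between the skin layers, which shared the kit, Rora was called lower in epidermis, with a ratio to dermis of 0.405 (0.371 to 0.441). It was the 1 member called lower, against 3.84% of 5880 genes, and no member was called higher (3.74%). Gata3, at 0.507 (0.455 to 0.564), lay just inside the limit. Irf4 at 0.642 (0.531 to 0.773), Ahr at 0.692 (0.569 to 0.837), Maf at 0.734 (0.685 to 0.787) and Prdm1 at 0.799 (0.661 to 0.961) had intervals below 1. Batf at 1.23 (1.07 to 1.41) lay above 1, but its log2 ratio was -0.08 without the shared barcodes and -0.04 without the cycling-like clusters. The Bhlhe40 ratio of 1.10 (0.771 to 1.57) allows a difference in either direction. The median log2 ratio of the members was -0.49, beside 0.05 over all genes considered.

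The cells of the epidermal library did not carry these transcripts evenly with respect to sex-linked genes. Epidermal cells with a Y-linked UMI and no Xist UMI numbered 101, and those with an Xist UMI and no Y-linked UMI 111. Rora stood at 215 CPM (184 to 249) in the first and 398 CPM (356 to 443) in the second, and Irf4 at 44.4 CPM (31.3 to 61.2) and 111 CPM (89.4 to 136). Ahr stood at 57.6 and 101 CPM and Gata3 at 167 and 239 CPM, while Maf stood at 545 and 577 CPM with intervals that overlap. The 82 epidermal cells with neither kind of UMI had Irf4 at 31.5 CPM and Ahr at 19.7 CPM. Cells of the resting Treg-like cluster described below made up 33.7% (24.6 to 43.8) of the first kind. They made up 24.3% (16.7 to 33.4) of the second, and their part in these values was not tested. In dermis, Irf4 stood at 120 CPM (83.6 to 167) in the 55 cells with a Y-linked UMI and no Xist UMI and at 99.9 CPM (90.2 to 110) in the 723 cells with the reverse. Dermal Rora stood at 583 CPM (499 to 678) and 727 CPM (700.3 to 755) in the same order, with intervals apart and the direction seen in epidermis, and dermal Maf at 583 CPM (499 to 678) and 699 CPM (673 to 726). When this second kind of cell alone was kept, the log2 ratio of epidermis to dermis was 0.15 for Irf4, 0.12 for Ahr and -0.87 for Rora, and no member was called lower. Sex and animal cannot be told apart here, and the split was chosen after the values of the libraries were seen.

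In single cells the same genes were seen in more skin cells than lymph node cells at equal depth. Each cell was thinned to 1500 UMIs, which left 262 epidermal, 828 dermal and 9308 lymph node cells and set aside 35, 47 and 92 shallower ones. A Rora UMI was found in 30.2% (exact 95% interval 24.7 to 36.1), 53.0% (49.6 to 56.5) and 4.24% (3.84 to 4.67) of epidermal, dermal and lymph node cells. The shares for Maf were 45.0%, 52.5% and 9.01%, and those for Gata3 25.6%, 37.2% and 12.5%. Batf stayed closest, at 17.2% (12.8 to 22.3), 14.3% (11.9 to 16.8) and 11.4% (10.7 to 12). Irf4, Prdm1 and Ahr had UMIs in 9.54% to 13.3% of skin cells and in 1.21% to 1.82% of lymph node cells, and Bhlhe40 in 3.82%, 2.05% and 0.913%. Without thinning, the Rora shares were 55.2%, 79.4% and 8.95%.

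No cell type shown to lack these genes was at hand as a background. Cells outside a gate on T cell genes (26 epidermal, 37 dermal and 100 lymph node cells, at median depths of 572.5, 1282 and 2157.5 UMIs) were not shown to be another type. In lymph node they had a Gata3 UMI in 19.0% (11.8 to 28.1), a Batf UMI in 11.0% (5.62 to 18.8) and a Prdm1 UMI in 5.0% (1.64 to 11.3), before thinning. In lymph node the thinned shares of all 8 genes lay within or below the intervals of these cells, and in dermis those of 7, Maf being the exception. In epidermis the shares of Gata3, Rora and Maf lay above them and those of the other 5 did not. Shares within or below are not read as expression by themselves.

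The number of the 8 genes with a UMI per thinned cell averaged 1.52, 1.96 and 0.423 in epidermal, dermal and lymph node cells. None was seen in 24.4% (19.3 to 30.1), 10.3% (8.28 to 12.5) and 67.4% (66.4 to 68.3) of them. At least 3 were seen in 22.5%, 29.5% and 1.56% of cells, and the highest number in a cell was 5, 7 and 5.

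**Figure D3:**
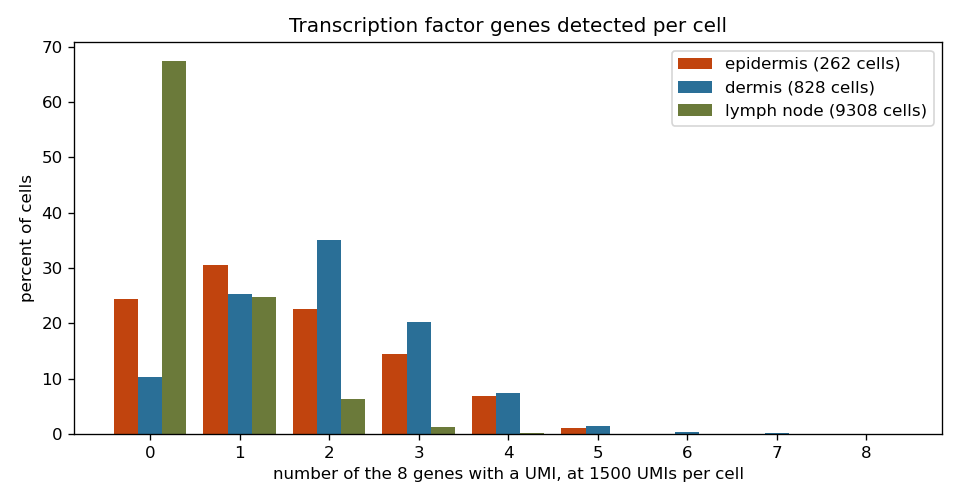
Percent of cells in epidermis, dermis and lymph node by the number of the 8 genes with a UMI after thinning to 1500 UMIs per cell. Most lymph node cells (67.4%) sit at 0, most skin cells at 1 or more.

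Of the 28 pairs of members, those of Maf with Prdm1, Ahr and Rora are described, a choice made after the values were seen. In epidermis Prdm1 had a UMI in 18.6% of Maf-positive cells (12.1 to 26.9) and in 4.17% of Maf-negative cells (1.54 to 8.85), Ahr in 16.9% and 3.47%, and Rora in 39.8% and 22.2%. In dermis the shares of Ahr were 15.6% (12.3 to 19.4) and 7.38% (5.0 to 10.4), whereas those of Prdm1 were 10.3% (7.65 to 13.6) and 12.7% (9.59 to 16.4), and those of Rora 52.0% (47.1 to 56.7) and 54.2% (49.1 to 59.2). In lymph node Prdm1 had a UMI in 5.24% of Maf-positive (3.84 to 6.98) and 0.815% of Maf-negative cells (0.634 to 1.03), Rora in 12.3% and 3.45%, and Ahr in 4.05% and 0.980%. The intervals of Prdm1 and of Rora in Maf-positive and Maf-negative cells were thus apart in epidermis and lymph node and overlapped in dermis. Cells of a library share their source, so these shares describe the library.

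Cells of each library were clustered on variable genes other than the 8 members, and a cluster was named only where markers of a type were raised and led it. Epidermis had 5 clusters, dermis 11 and lymph node 13. Lymph node cluster 12 (15 cells, unnamed) was led by H2-Ab1 and other genes, among them the B cell markers Cd79a and Ms4a1. It held Gata3 at 77.0 CPM (6 UMIs) and Maf at 128 CPM (10 UMIs), and no UMI of Irf4, Ahr or Bhlhe40. What these cells are was not tested. Resting Treg-like clusters, with Satb1 among the leading genes in all 3 libraries, numbered 89, 94 and 581 cells. Effector Treg-like clusters were found in epidermis (49 cells, led also by the immune genes Ifng and Cxcl10) and in lymph node (clusters 0, 8 and 9, with 2584 cells). No dermal cluster met the rule for that name at Leiden resolution 1. The rule sets a cluster against the rest of its own library, so a missing name does not show that such cells are absent. With coarser clusters (resolution 0.5), dermal cluster 2, with 162 cells and Rora at 1055 CPM, was named effector Treg-like. No epidermal cluster had that name then.

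**Figure D4:**
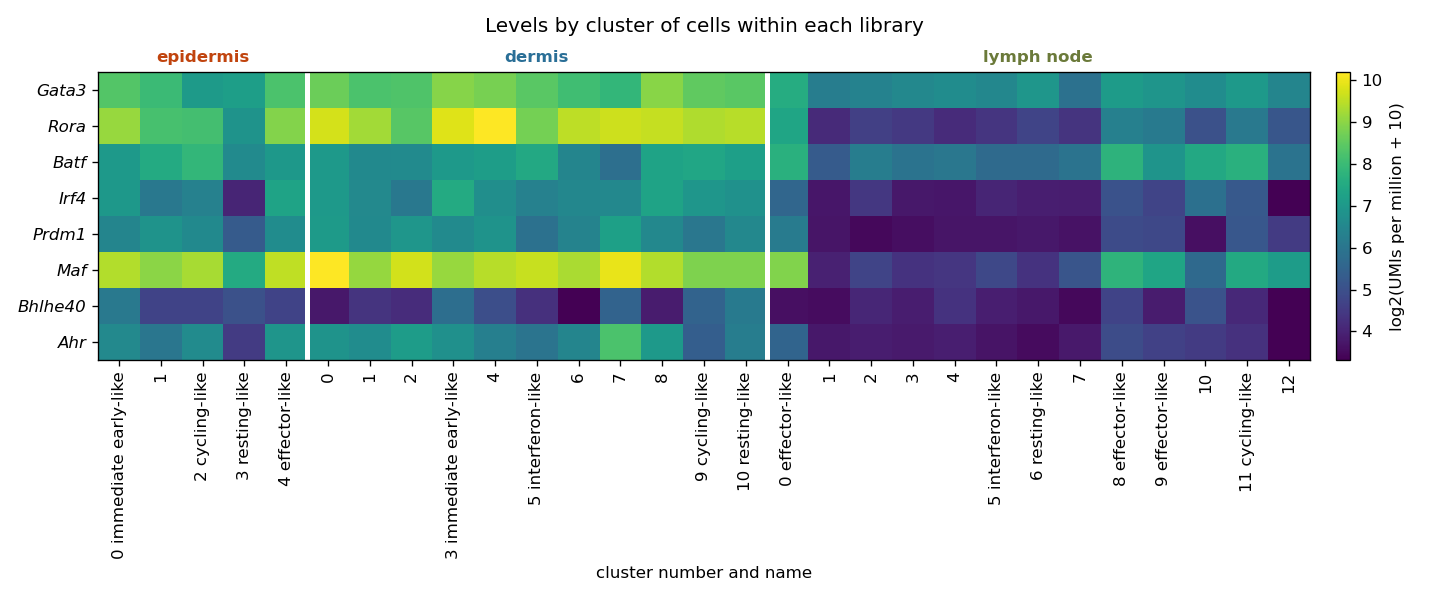
Level of each gene, as log2(CPM + 10), in each cluster of epidermis, dermis and lymph node. Numbers are clusters within a library and names follow markers. Within lymph node Maf, Rora and Prdm1 are brightest in cluster 0, and next in clusters 8, 9 (both effector Treg-like) and 11 (cycling-like), while Bhlhe40 is brightest in cluster 10.

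Within lymph node the members varied widely between clusters. Maf ran from 5.44 CPM in cluster 1 to 465 CPM in cluster 0, an effector Treg-like cluster led by Gzmb, Ccr2 and Klrg1. Rora ran from 7.62 to 153 CPM and Prdm1 from 1.02 to 62.5 CPM, both highest in the same cluster. Gata3 varied less, from 48.8 to 183 CPM. In the dermis Rora ran from 331 to 1160 CPM, so that the lowest dermal cluster lay above the highest lymph node cluster. That lowest cluster was dermal cluster 2 (183 cells, unnamed), with the keratinocyte markers Krt14 and Krt5 among its leading genes. Foxp3 stood at 152 CPM in it, and the source of its keratinocyte transcripts was not tested. Gata3 and Irf4 also had dermal point values above all those of lymph node, but with counting intervals that overlap. Irf4 stood at 57.6 CPM (41.5 to 77.9) in dermal cluster 2 and 47.8 CPM (41.1 to 55.4) in lymph node cluster 10. Gata3 stood at 223 CPM (134 to 348) in dermal cluster 7 and 183 CPM (161 to 206) in lymph node cluster 0. The dermal ranges of the other members overlapped those of lymph node. No member had epidermal and lymph node clusters apart, and the share over all genes was not counted. Clusters come from the same cells, so these ranges are a description.

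Lymph node cluster 10, unnamed and led by the activation genes Nr4a1, Nfkbid, Egr2 and Egr1, held a different mix of these factors from cluster 0. Bhlhe40 stood at 23.5 CPM in cluster 10 (88 UMIs in 830 cells) and 2.13 CPM in cluster 0 (3 UMIs in 374 cells), a ratio of 11.0 (3.66 to 54.6). Irf4 stood at 47.8 and 38.4 CPM, a ratio of 1.25 (0.915 to 1.72), and Batf at 168 and 194 CPM. Maf stood at 40.6 and 465 CPM, Rora at 22.7 and 153 CPM, and Prdm1 at 2.14 and 62.5 CPM, the last a ratio of 0.0342 (0.0143 to 0.0704). The Batf ratio was 0.864 (0.749 to 1.0), so Batf and Irf4 lay nearer to 1 than Maf, Rora, Prdm1 and Bhlhe40, of which the first 3 were higher in cluster 0. Nr4a1 is itself a gene induced by the T cell receptor and stood at 185 and 49.0 CPM.

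The effector Treg-like cluster of epidermis was set beside the effector Treg-like clusters of lymph node. Irf4 was 6.59-fold higher (4.68 to 9.10), Rora 6.04-fold (5.01 to 7.22), Ahr 5.38-fold (3.62 to 7.78), Prdm1 3.59-fold (2.34 to 5.32), Maf 3.26-fold (2.83 to 3.74) and Gata3 2.30-fold (1.84 to 2.85). Batf stood at 117 CPM in the epidermal and 163 CPM in the lymph node cells, a ratio of 0.716 (0.499 to 0.995). The Bhlhe40 ratio of 1.77 (0.559 to 4.28) rested on 5 epidermal UMIs. The order of the genes differed from that between whole libraries, with Batf below 1. Fos stood at 991 CPM in the epidermal cluster and at 5.13 to 25.6 CPM in the 3 lymph node clusters, and its part in these ratios was not tested. The name of the epidermal cluster rests on 11 raised effector markers, of which 1, Areg, was among its leading genes. It also had 6 raised immediate early markers. Epidermal cluster 0, named immediate early-like, had 12 raised effector markers but none among its leading genes. With coarser clusters no epidermal cluster was named effector Treg-like.

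Resting Treg-like cells of dermis carried more of every member than those of epidermis or lymph node. Epidermal resting Treg-like cells had 6.44 CPM of Irf4 (4 UMIs), dermal ones 102 CPM and lymph node ones 5.05 CPM. Rora stood at 106, 695 and 16.6 CPM, and Maf at 172, 457 and 10.1 CPM. The ratio of dermis to lymph node was 41.9 for Rora (27.5 to 66.9), 45.2 for Maf (26.4 to 84.0) and 3.30 for Batf (2.31 to 4.75). The ratio of epidermis to dermis was 0.153 for Rora (0.116 to 0.199), 0.0633 for Irf4 (0.0166 to 0.172), 0.197 for Ahr (0.0789 to 0.434) and 0.398 for Gata3 (0.303 to 0.519). Epidermal Gata3, at 134 CPM, was within counting error of lymph node Gata3 at 112 CPM, with a ratio of 1.19 (0.899 to 1.56). Leaving out the shared barcodes kept these ratios within their intervals. The clusters were named separately in each library and differed in the immediate early gene Fos, which stood at 303, 1351 and 2.16 CPM in epidermis, dermis and lymph node. Its part in the result was not tested. The names rest on 11, 9 and 8 raised markers of resting Tregs. The dermal cluster nevertheless had Maf at 457 CPM and Rora at 695 CPM, beside 465 and 153 CPM in effector Treg-like cluster 0 of lymph node, and the whole dermal library had 7 UMIs of Tcf7, a factor of resting T cells. With coarser clusters (Leiden resolution 0.5), only epidermis had a cluster named resting Treg-like, so this comparison depends on the resolution. Whether the 3 clusters hold like states was not tested.

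**Figure D5:**
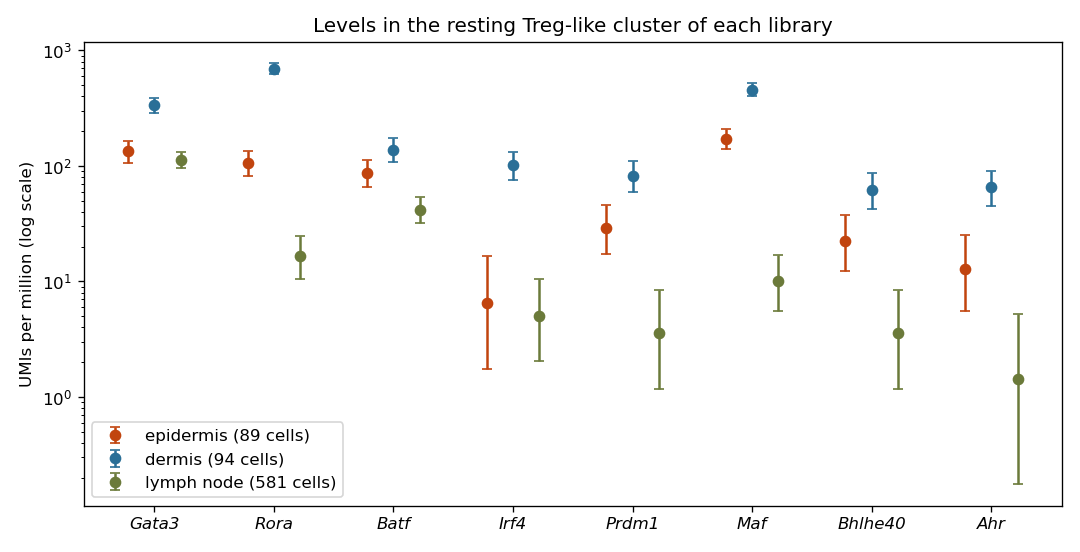
CPM (log axis) of the 8 genes in the resting Treg-like cluster of epidermis, dermis and lymph node, with exact 95% Poisson intervals. The dermal point is the highest for each gene. For Irf4 the epidermal and lymph node points lie at 6.44 and 5.05 CPM.

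Within epidermis, the effector Treg-like cluster stood above the resting Treg-like cluster in Irf4 by 23.2-fold (8.47 to 88.8), Ahr by 8.58-fold (3.90 to 21.4), Rora by 4.43-fold (3.29 to 6.03), Maf by 4.28-fold (3.39 to 5.44), Prdm1 by 3.14-fold (1.68 to 6.03) and Gata3 by 2.21-fold (1.63 to 3.02). Within lymph node, the ratio was 4.49 for Irf4 (2.14 to 11.3), 14.2 for Ahr (3.89 to 118, on 2 UMIs in the resting Treg-like cells), 4.71 for Rora (3.11 to 7.47), 22.4 for Maf (13.3 to 41.1), 7.03 for Prdm1 (2.97 to 21.8) and 1.14 for Gata3 (0.965 to 1.36). The Bhlhe40 ratio was 0.721 in epidermis (0.203 to 2.12) and 2.55 in lymph node (1.05 to 8.05). Batf separated the classes by 3.91-fold in lymph node (3.0 to 5.17) and by 1.35-fold in epidermis (0.857 to 2.09). The epidermal cycling-like cluster had the highest epidermal Batf level, 223 CPM, and 202 CPM without the 24 shared barcodes among its 68 cells.

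Across the 29 clusters, after the mean of each library was subtracted, the genes most like each member were found among 3891 genes with at least 20 CPM in every library. Icos, a costimulatory receptor of effector Tregs, was closest to both Maf (Pearson r 0.97) and Rora (r 0.92). Prdm1 was closest to Ikzf3, an Ikaros family factor (r 0.90), and to Ccr2, a chemokine receptor (r 0.90). Irf4 was closest to Gadd45b (r 0.86), Ndfip1 (r 0.84) and the activation gene Nr4a1 (r 0.84). Gata3 was closest to Il10ra, a chain of the interleukin 10 receptor (r 0.85), Batf to Sh3bgrl (r 0.86) and Ahr to Vmp1 (r 0.88). Bhlhe40 had no close neighbour, with Nrp1 highest at r 0.63. With coarser clusters (14 in all), the 3 closest genes of Maf and of Rora were again among their top 10, as were 2 of 3 for Irf4 and Prdm1, 1 of 3 for Gata3, Batf and Ahr and 0 of 3 for Bhlhe40. Among the members, Maf and Prdm1 (r 0.88), Maf and Rora (r 0.84) and Rora and Prdm1 (r 0.83) were closest, and Prdm1 and Bhlhe40 stood at r -0.06. These correlations are over clusters that share libraries and differ in depth.

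Genes linked to these factors were counted in the same way, and each count stands against the shares over all genes given above, 19.7% higher and 3.11% lower in epidermis and 24.6% higher and 9.38% lower in dermis, relative to lymph node. Of the genes linked to GATA3 and RORα, relative to lymph node, 7 of 9 were called higher in epidermis, 6 of 8 in dermis, and none lower. Areg, the growth factor amphiregulin, stood at 525, 752 and 4.32 CPM in epidermis, dermis and lymph node. Il1rl1, the receptor for interleukin 33, stood at 75.3, 140 and 7.14 CPM, Ccr8, a chemokine receptor of skin-homing T cells, at 38.5, 48.8 and 2.64 CPM and Klrg1 at 111, 233 and 20.7 CPM. Of the listed genes of the AP-1 and IRF families, 8 of 13 were called higher than lymph node in epidermis, with none called lower. In dermis 6 of 13 were called higher and 1 lower. The largest ratios in both layers were those of Fosb, Fos and Fosl2, of which Fosb and Fos are also on the list of immediate early genes. Not every listed gene is a known partner of BATF or IRF4, and partnering was not tested. Jund and Junb stood at 1652 and 1972 CPM in epidermis, 4155 and 3591 CPM in dermis and 460 and 219 CPM in lymph node. Batf3, a close relative of Batf, had 0, 2 and 3 UMIs.

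Of the genes linked to BLIMP-1 and c-MAF, 3 of 7 were called higher and none lower in epidermis, relative to lymph node. In dermis 3 of 8 were called higher, against 24.6% of all genes, and 4 lower, against 9.38%. Il10 stood at 63.0 CPM in epidermis, 106 CPM in dermis and 2.70 CPM in lymph node, and Mafg, which encodes a small MAF protein, at 35.8, 78.0 and 16.1 CPM. Lag3, another inhibitory receptor, stood at 44.0, 7.13 and 32.5 CPM, and Bach2, which encodes a repressor of effector differentiation, at 25.8, 4.97 and 28.1 CPM. Il10, Mafg and Havcr2 were thus higher in both skin layers, while Lag3 and Bach2 were low in dermis.

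Of the AHR pathway genes, 2 of 8 were called higher in epidermis, near the 19.7% over all genes, and 4 of 8 in dermis, against 24.6%, relative to lymph node, and none lower. Tiparp, a target of AHR, stood at 27.2 CPM in epidermis, 57.5 CPM in dermis and 8.02 CPM in lymph node, and Entpd1, the ectonucleotidase CD39, at 37.2, 26.8 and 8.87 CPM. The AHR targets Cyp1a1, Cyp1b1 and Ahrr had at most 1 UMI in any library. Of the clock and BHLHE40 linked genes, 4 of 6 were called higher in epidermis and 8 of 10 in dermis, relative to lymph node, among them the clock gene Per1 at 42.2, 100 and 6.08 CPM and Nfil3 at 68.0, 127 and 9.09 CPM.

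Transcription factors of resting T cells went the other way in part. In epidermis 3 of 11 were called lower than in lymph node, in dermis 6 of 11, and none higher in either. Tcf7 stood at 33.6, 1.51 and 97.4 CPM and Lef1 at 65.8, 24.6 and 182 CPM in epidermis, dermis and lymph node. Klf2, at 688, 1363 and 766 CPM, and Ets1, at 568, 682 and 407 CPM, were higher in dermis than in lymph node without being called. Between the skin layers 5 of 11 were called higher in epidermis, against 3.74% of all genes considered, and none lower, against 3.84%. Of other effector T cell factors, 10 of 14 were called higher in epidermis and 11 of 14 in dermis, relative to lymph node, with Id2 at 305, 566 and 38.9 CPM. Effector Treg surface and secreted genes were called higher for 12 of 17 in epidermis, with none lower, and for 11 of 17 in dermis, with 2 lower, relative to lymph node.

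Most immediate early and T cell receptor induced genes that could be called were higher in skin too. The 16 immediate early genes summed to 7111 CPM in epidermis, 15735 CPM in dermis and 1176 CPM in lymph node, and 10 of 12 and 14 of 15 were called higher than in lymph node. Atf3 was not counted in lymph node, so its dermal ratio, against a floor of 3 counts over the library, is at least 765-fold higher. The 10 T cell receptor induced genes summed to 1916, 3363 and 432 CPM, with Tnfaip3 at 293, 705 and 19.4 CPM, and 6 of 8 were called higher in each skin layer. Egr2, under 20 CPM in every library and so not considered, went the other way, at 5.90, 2.38 and 16.6 CPM. Skin was enzymatically separated and lymph node mashed, so tissue handling and tissue cannot be told apart. Clusters that met the rule for the name immediate early-like were found only in skin (53 epidermal and 45 dermal cells). Leaving them out does not take out the immediate early signal. Dermal cluster 1, with Fos at 3965 CPM, epidermal cluster 4, at 991 CPM, and lymph node cluster 10 stayed in. Without the named clusters, the median log2 ratio of the 8 members to lymph node was 2.24 in epidermis and 2.86 in dermis. Then 5 and 6 members were called higher, against 18.6% and 24.4% of all genes. Bhlhe40 was then under the limit of 20 CPM in both skin layers, with log2 ratios to lymph node of 1.17 in epidermis and 1.15 in dermis that were still over 2-fold. Gata3 was not called in epidermis, at a log2 ratio of 0.91.

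Markers of other lymphocytes were also counted. The list of type 2 innate lymphoid cell markers summed to 401, 554 and 111 CPM in epidermis, dermis and lymph node, led by Il7r, which T cells share, and had UMIs of 4, 4 and 5 of its 7 genes. Of its cytokine genes, Il13 had no UMI in any library and Il5 had 2, 0 and 2 UMIs. Arg1 had none, and Calca had 0, 2 and 7 UMIs. Higher in skin were Il1rl1, at 75.3, 140 and 7.14 CPM, and Il17rb, at 3.17, 4.97 and 1.06 CPM. Markers of gamma-delta or type 17 T cells, 5 of 7 of which were in the table, summed to 4.99, 5.83 and 2.73 CPM, with Il17f and Cd163l1 at 0. Il17a had 0, 7 and 0 UMIs, and Il23r 5, 9 and 5 UMIs. Follicular or conventional T cell markers summed to 90.7, 58.5 and 76.3 CPM with UMIs of 5 of 6 genes in each library. Among them Il2, which activated conventional T cells make, stood at 4.99, 1.08 and 44.4 CPM, and Ifng at 35.4, 19.9 and 2.04 CPM. Markers of CD8 T or natural killer cells summed to 47.2, 19.9 and 21.6 CPM. Keratinocyte markers summed to 55.3, 162 and 24.2 CPM with UMIs of 7, 8 and 5 of 8 genes, and the part of these markers in the results was not tested.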

How the data were processed

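Single-cell RNA libraries of sorted Tregs from epidermis, dermis and lymph node, 1 each, were analysed. The values the authors deposited are counts: UMIs for each gene in each barcode, not normalized. The submitters' processing notes name Cell Ranger and mm10. Per the file headers, Cell Ranger 4.0.0 made both skin tables, and its version for lymph node was not found here.

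Barcodes with at least 500 UMIs and at most 10% mitochondrial UMIs were kept. Doublets were not removed. UMIs were summed over the kept cells of a library or cluster and scaled to 1000000 (CPM), so cells with many UMIs weigh more. Poisson, Clopper-Pearson and binomial-split intervals are exact at 95%. A gene was called at a ratio of 2 with 20 CPM in the higher library. The rule was also run on simulated counts that held counting error only. The genes changed there were more abundant than Rora, Irf4, Prdm1, Ahr and Bhlhe40 are in lymph node. That run therefore does not test the rule for such scarce genes or for variation between libraries. A count of 0 was set against 3 counts. Clusters used scanpy 1.11.5 with 1500 variable genes, 20 components, 15 neighbours and Leiden resolution 1. A name required at least 5 markers raised 1.5-fold at 20 CPM, at least 1 of them among the 10 leading genes, a rule taken from an earlier analysis of these data. The members, lists and markers were chosen with earlier results of these data known. Named genes were the members, the 3 genes most like each, and up to 4 genes per list and comparison with the largest ratios. Genes named outside these, such as Tcf7 beside the counts, complete a described list and were chosen after their values were seen. Promoters came from RefSeq for 5 of the 8 members (Maf, Bhlhe40 and Ahr had none), with GENCODE vM21 for exons. TMM scaling used edgeR 4.0.16.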

Additional observations from a re-analysis of the deposited data

Results flagged for a closer look

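Barcodes over the mitochondrial limit are outside every comparison above, and they held transcripts of these genes. The 8 members summed to 2038 CPM in 63 epidermal barcodes, 2334 CPM in 202 dermal barcodes and 375 CPM in 19 lymph node barcodes left out for mitochondrial UMIs. Kept cells had 1358, 2205 and 348 CPM. Single members did not all stand in the same relation. Ahr stood at 178 CPM (109 to 275) in the excluded and 65.3 CPM in the kept epidermal barcodes, and at 225 CPM (174 to 285) in the excluded and 94.4 CPM in the kept dermal barcodes. Prdm1 stood at 160 CPM (95 to 253) and 72.1 CPM in epidermis, and at 174 CPM (130 to 229) and 90.3 CPM in dermis, in the same order. Batf was lower in the excluded barcodes, at 53.4 CPM (19.6 to 116) against 150 CPM in epidermis and 53.7 CPM (30.7 to 87.1) against 122 CPM in dermis. The 3 lymph node values rest on 13 UMIs of the 8 genes in all. What these barcodes are was not tested.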

How the results depend on the processing

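No paired analysis was possible because each tissue had 1 library, and no library could be left out. Against lymph node, 5 to 8 members were called higher in epidermis and 6 or 7 in dermis under the alternative cell sets, scalings and thresholds tried, and Batf was called in epidermis at a ratio of 1.5 only. Between epidermis and dermis, where 1 member was called lower with all kept cells, 2 were called lower among cells with a Foxp3 UMI, 2 without the immediate early-like clusters, 2 under TMM scaling, 2 under median-of-ratios scaling and 3 at a ratio of 1.5. None (0) was called lower without the resting Treg-like clusters or among cells with an Xist UMI and no Y-linked UMI. After thinning to 1500 UMIs, 1 member, Bhlhe40, was called higher in epidermis (log2 ratio 1.08), against 0 otherwise. The share of all genes called under each of these settings is not given beside these counts. They therefore cannot be set against the shares over all genes given above. The causes of the changes in these counts were not tested. No result reversed a call. Over the 15 alternatives that change the ratios, the log2 ratio of epidermis to dermis for Rora ran from -1.72 to -0.87. TMM moved the median of all genes to -0.35 for epidermis over lymph node and -0.07 for epidermis over dermis, and the median of the members to 1.88 and -0.59. Removal of the barcodes found in both skin libraries was chosen after seeing the data. At 9.63 CPM, lymph node Prdm1 rests on 317 UMIs, and Bhlhe40 on 51 UMIs in epidermis, which limits their precision.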

Other observations

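Dermal cluster 7 (36 cells, median 2093 UMIs, median 7.49% mitochondrial UMIs, unnamed) had the highest dermal Ahr and Prdm1 levels, 293 and 141 CPM, and the lowest dermal Batf level, 46.9 CPM from 4 UMIs. Its mitochondrial share was the highest among the dermal clusters, whose other medians ran from 3.62% to 5.18%. Barcodes over the mitochondrial limit also had more Ahr and Prdm1 and less Batf than kept cells, and the relation between these values was not tested.

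Dermal cluster 0, led by Ccl3 and Il10, had the highest Maf level of any cluster, 1161 CPM, and dermal cluster 4, led by genes such as Bambi and Ikzf4, the highest Rora level, 1160 CPM. Fos stood at 3127 CPM in the first and 249 CPM in the second.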
